A study of Mus musculus with 12 samples.

Results

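The genes for receptors of the colony-stimulating factors and of 5 further cytokines were examined in sorted myeloid-derived suppressor cells (MDSCs) from mouse liver tumors. The 10 genes, chosen by symbol, were Csf1r, Csf2ra, Csf2rb, Csf2rb2, Csf3r, Il6ra, Il4ra, Ifngr1, Tgfbr2 and Il10ra, of 24346 gene symbols in the expression tables, and all 10 were found in each of the 12 libraries. Cells were sorted by flow cytometry from liver tumors of Hepa 1-6, a mouse hepatoma line, in wild-type C57BL/6J female mice of 6 to 8 weeks. M-MDSCs, the monocytic subset, were CD11b+, high in Ly-6C and negative for Ly-6G, and PMN-MDSCs, the polymorphonuclear subset, were CD11b+, intermediate in Ly-6C and positive for Ly-6G. Mice of every group had been selected for a high share of MDSCs in blood before treatment. They received vehicle, MS-275 (entinostat) or CXD101, both inhibitors of the histone deacetylases HDAC1-3, at 5 mg/kg daily for 10 days, beginning on day 10 after tumor injection, with cell collection on day 21. This schedule is given in the study's methods, whose RNA-seq section describes M-MDSCs, and it was taken to hold for the PMN-MDSC libraries as well. Each of the 6 groups (M or PMN by vehicle, MS-275 or CXD101) had 2 libraries. The study calls the libraries biological replicates where it presents M-MDSC profiles, not in its RNA-seq methods, and does not state this for PMN-MDSCs, so p-values there measure the spread between libraries, which may be technical.

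Colony-stimulating factors direct the production, survival and activation of myeloid cells. CSF1R is a receptor tyrosine kinase of monocytes and macrophages that binds CSF1 and IL-34, and CSF3R is the G-CSF receptor of the neutrophil lineage. The GM-CSF receptor combines a ligand-binding alpha chain, encoded by Csf2ra, with the common beta chain, encoded by Csf2rb, which also serves the receptors of IL-3 and IL-5, and mice carry a further beta chain gene, Csf2rb2, whose product is particular to the IL-3 receptor. The other members encode the ligand-binding chains for IL-6, IL-4, interferon-gamma, TGF-beta and IL-10. Each works with a partner chain (IL6ST, the common gamma chain or IL13RA1, IFNGR2, TGFBR1 and IL10RB). Except for CSF1R and the TGF-beta receptor kinases, these receptors signal through Janus kinases and STAT proteins.

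Expression was given as FPKM, which divides a gene's fragments by transcript length and library size, so levels can be ordered between genes. Differences were tested with limma on log2(FPKM + 1), on which scale all differences below are given, and adjusted p-values are Benjamini-Hochberg values over all genes tested. A gene was called at an adjusted p under 0.05 with a fold change above 1.5. The spacing of low FPKM values put the depth at an estimated 6.95 to 10.495 M reads per library, with between 290 and 20339 estimated reads behind a receptor gene in a library. Replicate libraries correlated across 11662 genes with r of 0.988 to 0.991. Under vehicle, 9 of 9 neutrophil markers measured were called higher in PMN-MDSCs, and of 7 monocyte markers tested 5 were lower, Ccr2 with 40.7 and 35.7 against 147 and 137 FPKM, and 2 were higher (Chil3 and Cx3cr1). Ly6g was not analysed here. The 7 hepatocyte and liver tumor markers summed to 1.04 to 3.39 FPKM, with albumin and transthyretin transcripts at or below 0.0528 and the tumor marker Afp at 1.041 to 2.29, and the 8 T, B and NK cell markers summed to at most 14.0 FPKM and the 5 erythroid ones to at most 0.873. Summed markers of dendritic cells, among which H2-Ab1 held the most, were at 13.2 to 25.1 FPKM in M-MDSCs and 32.2 to 87.0 in PMN-MDSCs, and those of mast cells and basophils at 5.99 to 14.7 and 14.7 to 53.6. S100a8 and S100a9 held 1.78% to 4.28% of the summed FPKM in M-MDSCs, 10.2% to 13.7% in PMN-MDSCs under vehicle, and 27.3% to 30.9% under the inhibitors.

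**Figure D1:**
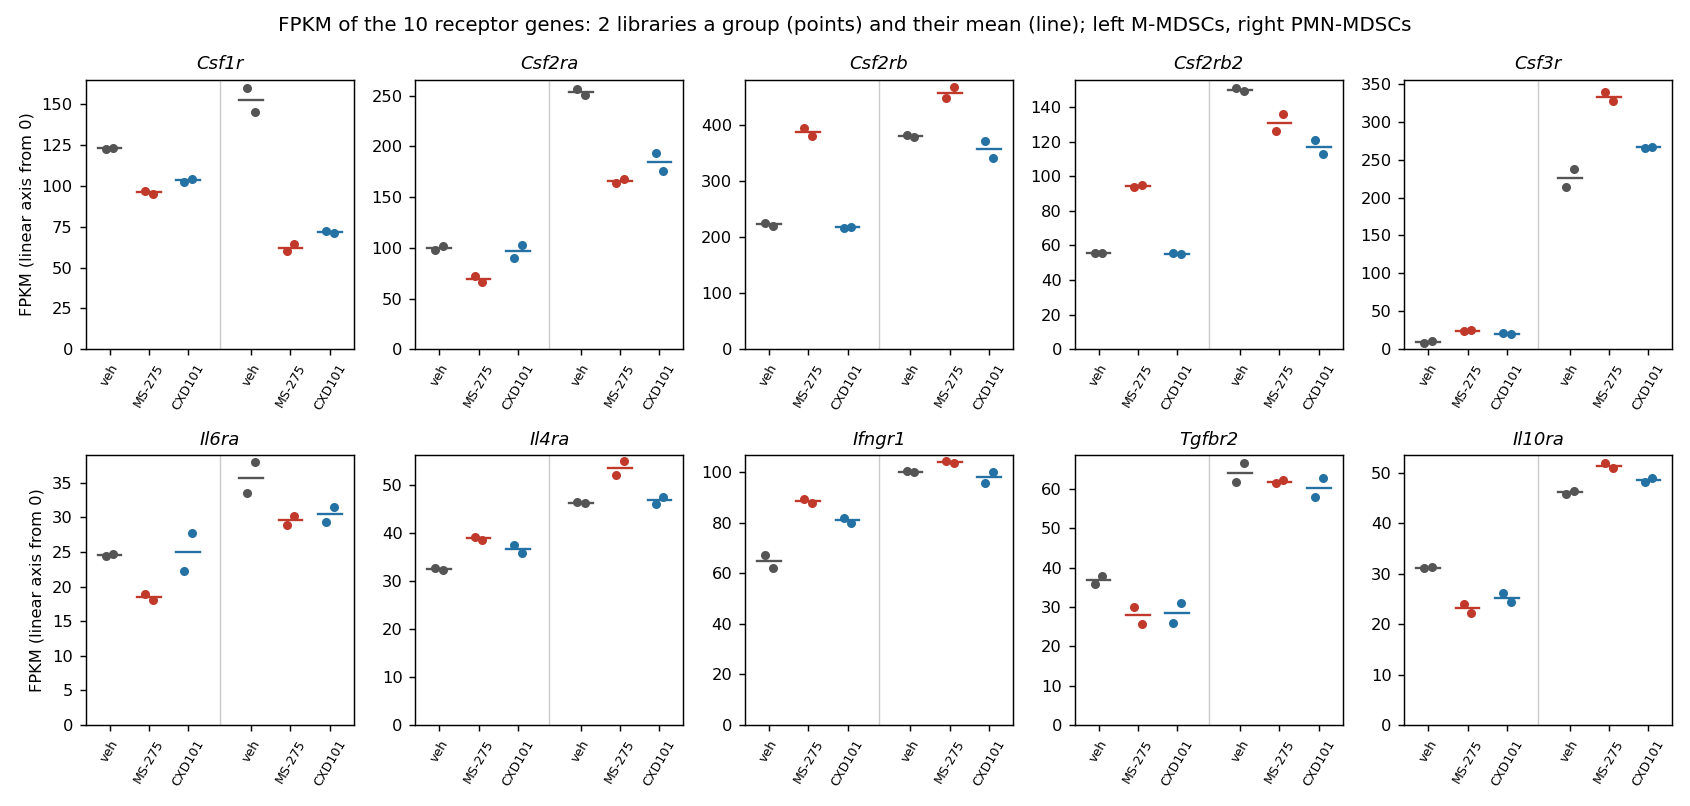
FPKM (linear axes from 0) of the 10 receptor genes in 12 libraries, with M-MDSCs on the left and PMN-MDSCs on the right of each panel; points are libraries and lines the mean of 2. Csf3r stood at 8.75 to 24.9 FPKM in M-MDSCs and at 214 to 339 in PMN-MDSCs, and Csf1r was lowest in PMN-MDSCs under the inhibitors.

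Csf2rb had the highest level of the 10 genes in all 6 groups, from a mean of 217 FPKM in M-MDSCs under CXD101 to 458 in PMN-MDSCs under MS-275. In M-MDSCs under vehicle it was followed by Csf1r (123), Csf2ra (99.7), Ifngr1 (64.9), Csf2rb2 (55.6), Tgfbr2 (36.8), Il4ra (32.5), Il10ra (31.2), Il6ra (24.5) and Csf3r (9.61), and every gene's libraries lay above those of the next. In PMN-MDSCs under vehicle the order was Csf2rb (380), Csf2ra (253), Csf3r (226), Csf1r (153), Csf2rb2 (150), Ifngr1 (100.3), Tgfbr2 (64.1), Il4ra (46.4), Il10ra (46.1) and Il6ra (35.7). There the libraries of Csf1r and Csf2rb2 overlapped, as did those of Il4ra and Il10ra. Under vehicle Csf3r was thus the lowest in M-MDSCs and behind Csf2rb and Csf2ra in PMN-MDSCs. Under MS-275 it lay above Il10ra and Il6ra in M-MDSCs, under CXD101 it was again the lowest there, and in PMN-MDSCs under either inhibitor it was behind Csf2rb alone. By rank among all genes, Csf3r went from 6420 in M-MDSCs to 399 in PMN-MDSCs under vehicle, where 10469 and 10581 genes had a mean of at least 1 FPKM.

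Csf3r, the G-CSF receptor gene (GRCm38, chromosome 4, 126024550 to 126044440, plus strand), had 8.753 and 10.46 FPKM in the M-MDSC libraries under vehicle, 24.3 and 24.9 under MS-275 and 21.02 and 20.6 under CXD101. In PMN-MDSCs it had 214 and 237 under vehicle, 339 and 327 under MS-275 and 266 and 267 under CXD101. Inhibitor and vehicle libraries did not overlap in either subset, and no M-MDSC library came near the PMN-MDSC ones. The difference between the subsets under vehicle was 4.42 (standard error 0.0786, adjusted p = 1.41e-10, limma), the largest of the 10 genes. In M-MDSCs, Csf3r rose by 1.27 under MS-275 (standard error 0.0912, adjusted p = 2.49e-05, limma) and by 1.04 under CXD101 (adjusted p = 2.22e-04, limma), and it was the only one of the 10 called under CXD101 there. In PMN-MDSCs the difference under MS-275 was 0.56 (adjusted p = 3.25e-04, limma), just under the fold change limit, and leaving out vehicle replicate 2 (0.64) or MS-275 replicate 2 (0.59) put it above. Under CXD101 it was 0.24 there (adjusted p = 0.0216, limma). Neutrophil markers moved along with Csf3r in M-MDSCs, but not all one way. Of 9 tested under MS-275, 4 were higher, among them Mmp8, a neutrophil collagenase, from 117 and 107 to 768 and 801 FPKM and Cxcr2, a neutrophil chemokine receptor, from 2.82 and 3.11 to 20.8 and 19.7, and 3 were lower, the granule genes Ltf and Camp and the gelatinase gene Mmp9. Under CXD101, 4 were higher and 1 lower. The summed level of the list, most of it S100a8 and S100a9, was 11420 to 12070 FPKM under vehicle, 22020 to 25990 under MS-275 and 21980 to 23180 under CXD101. In PMN-MDSCs 8 of the 9 were called higher under either inhibitor. Mmp9 was lower there, called under MS-275 (-0.65) and not under CXD101 (-0.58). The sum in PMN-MDSCs was 71360 to 97310 FPKM under vehicle, 255200 to 278700 under MS-275 and 269600 to 295800 under CXD101. In bulk RNA, fewer or more cells of a type and less or more RNA per cell cannot be told apart, and the part of these markers in the Csf3r values was not tested.

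The 150 bases before the RefSeq start of Csf3r and of Csf2ra are shown because both genes differed between the subsets by over 1 on the log2 scale and these bases hold the GAGGAA hexamer. The GENCODE spans begin further upstream, at 126024550 for Csf3r and 61228429 for Csf2ra. Part of each stretch thus lies within the annotated gene, with the Csf3r hexamer and the Csf2ra hexamer nearer the start. Capitals mark GAGGAA, a longer hexamer that holds GGAA, the core bound by ETS family factors.
Csf3r, GRCm38.p6 chr4:126024509-126024658, plus strand: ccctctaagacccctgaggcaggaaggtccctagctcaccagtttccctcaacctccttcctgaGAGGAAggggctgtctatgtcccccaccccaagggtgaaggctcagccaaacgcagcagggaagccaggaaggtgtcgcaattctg
Csf2ra, GRCm38.p6 chr19:61228419-61228568, minus strand: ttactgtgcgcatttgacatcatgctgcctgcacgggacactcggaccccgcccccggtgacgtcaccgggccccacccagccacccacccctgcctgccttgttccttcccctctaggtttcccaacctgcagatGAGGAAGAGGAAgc
RefSeq promoter entries were found for 7 of the 10 genes, all but Csf1r, Csf2rb and Il10ra. Within 250 bases before the start, on either strand, GAGGAA was found in 5 of the 7 (Csf2ra, Csf2rb2, Csf3r, Il6ra and Tgfbr2), against 23.25% of 32851 promoters. TTGCNNAA, a C/EBP core, was found in Tgfbr2 alone, against 9.56%, and TTCNNNGAA, a STAT core, in Csf2rb2 alone, against 7.02%. The searched motifs did not overlap one another in these promoters. These matches are descriptions of letters and were not tested against the expression values.

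The GM-CSF receptor genes did not move together. Csf2ra, the alpha chain gene (chromosome 19, 61223957 to 61228429, minus strand), had 97.4 and 102 FPKM in M-MDSCs under vehicle, 72.1 and 66.3 under MS-275 and 90.3 and 103 under CXD101. In PMN-MDSCs it had 256 and 251 under vehicle, 164 and 168 under MS-275 and 193 and 176 under CXD101. All PMN-MDSC libraries lay above all M-MDSC libraries, and in M-MDSCs the CXD101 libraries enclosed those of vehicle. Under vehicle Csf2ra exceeded its M-MDSC level in PMN-MDSCs by 1.34 (standard error 0.0747, adjusted p = 1.24e-07, limma). Under MS-275 it fell by 0.61 in PMN-MDSCs (adjusted p = 1.89e-04, limma), a call that was lost with quantile normalization (-0.58). It differed by -0.52 in M-MDSCs (adjusted p = 0.00102, limma) and, under CXD101 in PMN-MDSCs, by -0.46 (adjusted p = 0.00108, limma), both below the fold change limit.

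Csf2rb, the common beta chain gene (chromosome 15, 78325752 to 78353847, plus strand), went the other way under MS-275. Its levels in M-MDSCs were 225 and 220 FPKM under vehicle, 396 and 380 under MS-275 and 216 and 218 under CXD101. In PMN-MDSCs they were 382 and 378 under vehicle, 448 and 468 under MS-275 and 372 and 341 under CXD101. The MS-275 libraries of M-MDSCs thus reached the level of PMN-MDSCs under vehicle, and those under CXD101 stayed near M-MDSCs under vehicle. Csf2rb rose by 0.80 under MS-275 in M-MDSCs (standard error 0.0516, adjusted p = 1.60e-05, limma), and under CXD101 the difference was -0.03, with a 95% interval from -0.15 to 0.08 and a sign that changed with quantile normalization (0.0087). In PMN-MDSCs the difference under MS-275 was 0.27 (adjusted p = 0.00913, limma), below the fold change limit. The IL-5 receptor of eosinophils uses the same beta chain, and the summed level of 6 eosinophil markers in M-MDSCs was 152 to 184 FPKM under vehicle, 372 to 394 under MS-275 and 361 to 388 under CXD101, with Il5ra at or below 0.0975. Most of the sum was Ear2. Prg2 had 10.6 and 6.56 FPKM under vehicle, 113 and 133 under MS-275 and 94.0 and 102 under CXD101. Of 4 eosinophil markers tested between the inhibitors, Siglecf alone was called, higher with MS-275 than with CXD101 (0.83). Epx (0.43), Prg2 (0.33) and Ear2 (-0.16) were not called. The part of these markers in the Csf2rb values was not tested.

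Csf2rb2 (chromosome 15, 78282507 to 78305721, minus strand), which lies beside Csf2rb, had 55.8 and 55.4 FPKM in M-MDSCs under vehicle, 94.0 and 94.8 under MS-275 and 55.6 and 55.1 under CXD101. In PMN-MDSCs it had 151 and 149 under vehicle, 126 and 136 under MS-275 and 121 and 113 under CXD101. In M-MDSCs its pattern was like that of Csf2rb, with the MS-275 libraries well above the others. Those under CXD101 overlapped vehicle for Csf2rb2 and lay just below it for Csf2rb. In PMN-MDSCs the inhibitor libraries of Csf2rb2 lay below vehicle, where those of Csf2rb under MS-275 lay above. Csf2rb2 rose by 0.75 under MS-275 in M-MDSCs (standard error 0.0549, adjusted p = 2.71e-05, limma). In PMN-MDSCs it differed by -0.19 under MS-275 (adjusted p = 0.0404, limma), which passed in 7 of 17 alternative settings, and by -0.36 under CXD101 (adjusted p = 0.00379, limma), both below the fold change limit. The subsets under vehicle differed by 1.42 for Csf2rb2 (adjusted p = 1.22e-08, limma) and by 0.77 for Csf2rb (adjusted p = 6.81e-07, limma).

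Since Csf2rb and Csf2rb2 are near-identical copies, their sequences bear on how far their reads can be told apart. The aligned coding sequences were identical at 2503 of 2628 bases (95.24%) and the residues at 806 of 876 (92.01%). Of all 101-base stretches, the read length, 329 of 4800 in the Csf2rb transcript (6.85%) also occurred in Csf2rb2, and 329 of 4640 in Csf2rb2 (7.09%) occurred in Csf2rb. Below, a window of 60 coding bases with the median number of differences (2) and the one with most (13) are shown on GRCm38, with capitals at the bases that differ.
Csf2rb, exon 9, chr15:78341642-78341701, plus strand: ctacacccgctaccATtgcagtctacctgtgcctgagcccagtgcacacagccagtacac
Csf2rb2, exon 8, chr15:78291609-78291668, minus strand: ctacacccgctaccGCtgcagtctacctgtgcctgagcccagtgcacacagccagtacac
Csf2rb, exon 5, chr15:78338893-78338952, plus strand: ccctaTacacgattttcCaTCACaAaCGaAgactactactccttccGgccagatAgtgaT
Csf2rb2, exon 4, chr15:78294379-78294438, minus strand: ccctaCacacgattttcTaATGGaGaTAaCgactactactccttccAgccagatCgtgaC
How the authors' counting split reads that match both copies is not given in the sources used here, so the level of each is uncertain by the reads they share. Within a library, the ratio of Csf2rb to Csf2rb2 FPKM was 4.03 and 3.98 in M-MDSCs under vehicle, 4.21 and 4.01 under MS-275 and 3.89 and 3.96 under CXD101, so that the vehicle and MS-275 libraries overlapped and those under CXD101 lay below both. It was 2.53 and 2.54 in PMN-MDSCs under vehicle, 3.55 and 3.44 under MS-275 and 3.08 and 3.03 under CXD101. The ratio of Csf2rb to Csf2ra, the chains of the GM-CSF receptor, was 2.31 and 2.16 in M-MDSCs under vehicle and 5.48 and 5.74 under MS-275. Under CXD101 it was 2.39 and 2.11 there, enclosing vehicle. In PMN-MDSCs it was 1.49 and 1.51 under vehicle, 2.73 and 2.79 under MS-275 and 1.93 and 1.94 under CXD101.

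**Figure D2:**
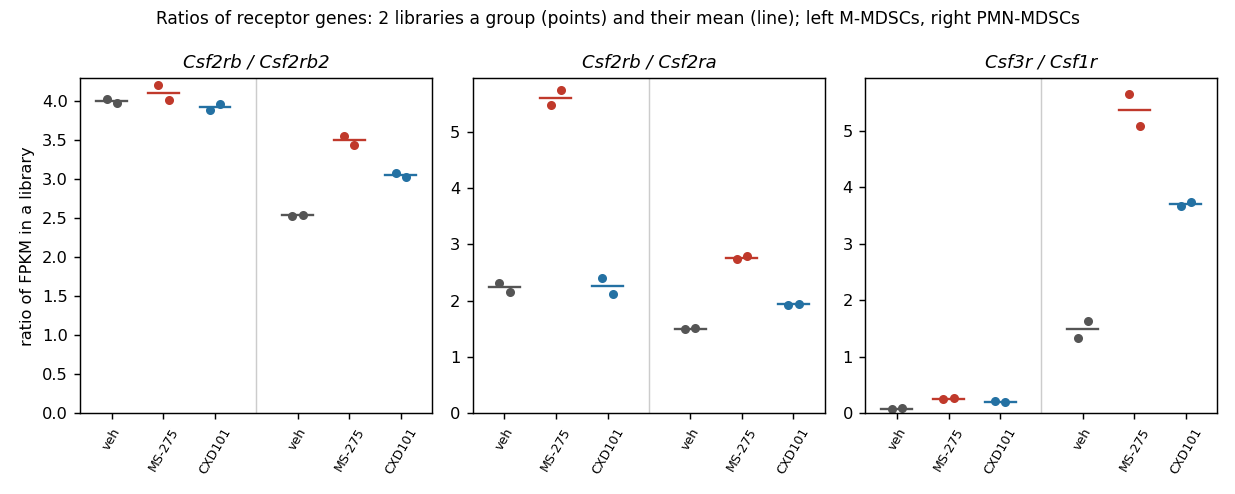
Ratio of the FPKM of a pair of receptor genes in each library (linear axes from 0), with M-MDSCs on the left and PMN-MDSCs on the right; points are libraries and lines the mean of 2. Csf2rb to Csf2ra was highest in M-MDSCs under MS-275 (5.48 and 5.74), and Csf3r to Csf1r went from a mean of 1.49 to 5.38 under MS-275 in PMN-MDSCs.

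Csf1r, the receptor gene of the monocyte and macrophage lineage (chromosome 18, 61100598 to 61132149, plus strand), had 123 and 123 FPKM in M-MDSCs under vehicle, 97.1 and 94.9 under MS-275 and 103 and 104 under CXD101. In PMN-MDSCs it had 160 and 145 under vehicle, 59.9 and 64.1 under MS-275 and 72.5 and 71.4 under CXD101. Under vehicle the PMN-MDSC libraries lay above those of M-MDSCs, and under either inhibitor they lay below. The difference between the subsets under vehicle was 0.31 (adjusted p = 0.00107, limma), below the fold change limit. In PMN-MDSCs, Csf1r fell by 1.28 under MS-275 (standard error 0.0723, adjusted p = 1.11e-05, limma) and by 1.07 under CXD101 (adjusted p = 3.89e-05, limma). In M-MDSCs the differences were -0.35 under MS-275 (adjusted p = 9.70e-04, limma) and -0.25 under CXD101 (adjusted p = 0.0122, limma), below the limit. Csf1r shares 873 exon bases, 15.12% of its own, with Hmgxb3 on the other strand, and whether the authors' counting used strand is not given in the sources used here.

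Most macrophage markers moved along with Csf1r, but not all. Of the 8 on the list, 6 were called lower in PMN-MDSCs under each inhibitor, and Apoe was called higher under MS-275. Adgre1, which had the highest level of the list in PMN-MDSCs, was not called there. Its means were 87.5 FPKM under vehicle, 83.3 under MS-275 and 67.7 under CXD101. Mrc1, the mannose receptor, went from 50.6 and 48.0 FPKM under vehicle to 3.32 and 2.96 under MS-275 and 20.1 and 23.7 under CXD101. Mertk, a receptor for dying cells, went from 9.29 and 9.41 to 0.546 and 0.592 and to 1.64 and 1.11. The summed level of the list was 237 to 255 FPKM in PMN-MDSCs under vehicle, 139 to 155 under MS-275 and 133 to 143 under CXD101, with none of the 8 genes at 0 in both libraries of a group. In M-MDSCs, where Csf1r did not pass the fold change limit, 6 of the 8 were also called lower under MS-275 and 3 under CXD101. Mrc1 went from 79.9 and 81.3 to 16.5 and 13.5 FPKM under MS-275. Adgre1 and Apoe were higher under MS-275 in M-MDSCs by 0.47 and 0.54 (adjusted p = 0.00175 and 0.00658, limma), below the fold change limit. The sum in M-MDSCs was 196 to 199 under vehicle, 101 to 110 under MS-275 and 156 to 173 under CXD101. Of 7 monocyte markers tested in PMN-MDSCs, 2 were called higher (Ly6c2 and Chil3) and 2 lower (Vcan and Cx3cr1) under each inhibitor. The 8 monocyte markers summed there to 2556 to 2594 FPKM under vehicle, 8136 to 8161 under MS-275 and 8256 to 8480 under CXD101. Most of each sum was Chil3 and Ly6c2, the 2 markers called higher. The part of the macrophage and monocyte markers in the fall of Csf1r was not tested. The ratio of Csf1r to Mrc1 in a library went from 3.16 and 3.03 to 18.03 and 21.7 under MS-275 in PMN-MDSCs, and was 3.598 and 3.01 under CXD101. That of Csf1r to Mertk went from 17.2 and 15.4 to 109.7 and 108.4 under MS-275 and 44.3 and 64.3 under CXD101.

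**Figure D3:**
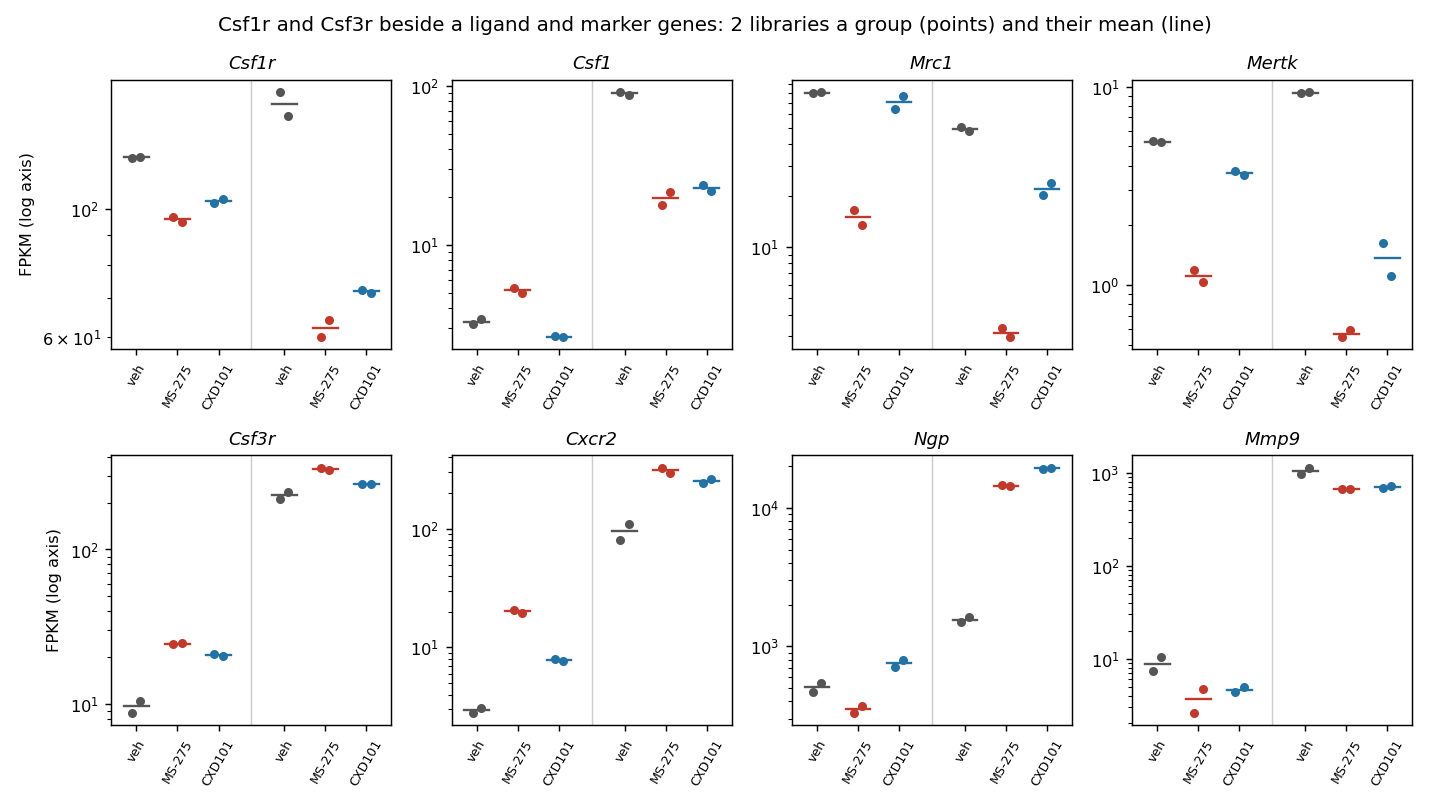
FPKM (log axes) of Csf1r and its ligand gene Csf1, the macrophage markers Mrc1 and Mertk, Csf3r, and the neutrophil markers Cxcr2, Ngp and Mmp9 in 12 libraries, with M-MDSCs on the left and PMN-MDSCs on the right; points are libraries and lines the mean of 2. In PMN-MDSCs under both inhibitors Csf1r, Csf1, Mrc1 and Mertk stood below vehicle, while Cxcr2 and Ngp stood above and Mmp9 below.

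Of the 5 remaining cytokine receptor genes, none was called under either inhibitor, apart from Ifngr1 with quantile normalization. Ifngr1, the interferon-gamma receptor chain (chromosome 10, 19591949 to 19610229, plus strand), had 67.5 and 62.3 FPKM in M-MDSCs under vehicle, 89.4 and 88.0 under MS-275 and 81.8 and 80.1 under CXD101. In PMN-MDSCs it stayed between 95.8 and 105 in all 6 libraries. Its difference in M-MDSCs was 0.45 under MS-275 (adjusted p = 6.37e-04, limma) and 0.32 under CXD101 (adjusted p = 0.00821, limma), below the fold change limit, and the former was called with quantile normalization (0.60). Under vehicle Ifngr1 was called higher in PMN-MDSCs, by 0.62 (adjusted p = 3.41e-06, limma), and without M-MDSC vehicle replicate 2 this was 0.57 and no longer past the limit.

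Tgfbr2, the TGF-beta receptor kinase that binds ligand (chromosome 9, 116084293 to 116175360, minus strand), had 35.8 and 37.7 FPKM in M-MDSCs under vehicle, 30.0 and 25.8 under MS-275 and 25.8 and 31.0 under CXD101. In PMN-MDSCs it lay between 57.9 and 66.5 in all libraries. It was higher in PMN-MDSCs under vehicle by 0.78 (adjusted p = 3.89e-05, limma), and its inhibitor libraries in M-MDSCs lay below vehicle, by -0.39 under MS-275 (adjusted p = 0.0158, limma) and -0.37 under CXD101 (adjusted p = 0.0369, limma). The latter passed in 9 of 17 alternative settings.

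Il10ra, the IL-10 binding chain (chromosome 9, 45253837 to 45269149, minus strand), had 31.1 and 31.2 FPKM in M-MDSCs under vehicle, 24.0 and 22.2 under MS-275 and 26.1 and 24.3 under CXD101. In PMN-MDSCs it had 45.9 and 46.4 under vehicle, 51.9 and 50.8 under MS-275 and 48.1 and 48.9 under CXD101. The inhibitor libraries thus lay below vehicle in M-MDSCs and above it in PMN-MDSCs. The differences under MS-275 were -0.42 in M-MDSCs (adjusted p = 0.00217, limma) and 0.15 in PMN-MDSCs (adjusted p = 0.0789, limma).

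Il4ra, shared by the IL-4 and IL-13 receptors (chromosome 7, 125552120 to 125579474, plus strand), lay between 32.3 and 39.2 FPKM in M-MDSCs and between 46.2 and 55.1 in PMN-MDSCs, highest under MS-275 in both. It differed by 0.25 under MS-275 in M-MDSCs (adjusted p = 0.0115, limma) and by 0.20 in PMN-MDSCs (adjusted p = 0.0332, limma). Il6ra, the IL-6 binding chain (chromosome 3, 89864059 to 89913196, minus strand), had 24.3 and 24.7 FPKM in M-MDSCs under vehicle, 19.0 and 18.03 under MS-275 and 22.3 and 27.8 under CXD101, and lay between 28.9 and 37.9 in PMN-MDSCs. Its difference under MS-275 was -0.39 in M-MDSCs (adjusted p = 0.0147, limma) and -0.26 in PMN-MDSCs (adjusted p = 0.0363, limma). The differences of Il4ra and Il6ra under MS-275 passed in 14 of 17 alternative settings in M-MDSCs, and in 7 and 8 of 17 in PMN-MDSCs. Antisense genes share 9.51% of the exon bases of Il4ra (Gm44876) and 2.8% of those of Il6ra (Gm42809).

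**Figure D4:**
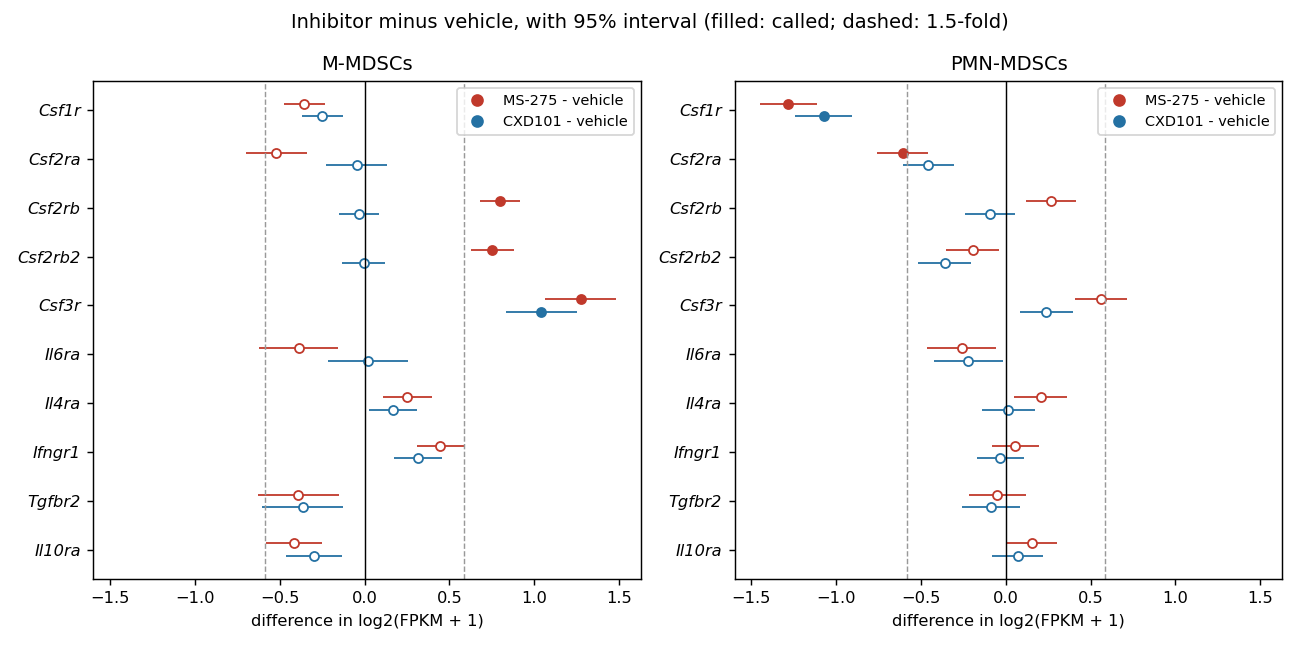
Difference in log2(FPKM + 1) between inhibitor and vehicle for the 10 genes in M-MDSCs (left) and PMN-MDSCs (right), with 95% intervals from limma; filled points were called and dashed lines mark a fold change of 1.5. Csf3r, Csf2rb and Csf2rb2 were called higher under MS-275 in M-MDSCs, and Csf1r was called lower under both inhibitors in PMN-MDSCs.

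Counted over the 10 genes, 3 were called under MS-275 in M-MDSCs (Csf2rb, Csf2rb2 and Csf3r), where 17.5% of all genes tested were called, and all 10 passed the adjusted p alone, against 46.4% of all genes. Of those 10, 5 were higher and 5 lower. Under CXD101 in M-MDSCs, 1 was called (Csf3r), against 8.13% of all genes, and 5 passed the adjusted p alone, against 23.1%. In PMN-MDSCs, 2 were called under MS-275 (Csf1r and Csf2ra), against 28.7%, and 7 passed the adjusted p alone, against 53.7%. Under CXD101, 1 was called (Csf1r), against 21.4%, and 4 passed the adjusted p alone, against 45.3%. The median difference of the 10 was -0.05 and -0.02 under MS-275 and CXD101 in M-MDSCs and 0.00 and -0.09 in PMN-MDSCs, against -0.06, -0.02, -0.03 and -0.03 over all genes. Both inhibitor comparisons of a subset share its vehicle libraries.

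Set against each other, the inhibitors differed in M-MDSCs in 2 of the 10 genes called, against 4.40% of all genes, and in 4 by adjusted p alone, against 13.7%. With MS-275, Csf2rb exceeded its CXD101 level by 0.83 (95% interval 0.72 to 0.95, adjusted p = 2.54e-04, limma) and Csf2rb2 by 0.76 (0.63 to 0.89, adjusted p = 3.95e-04, limma). Csf2ra differed by -0.48 (adjusted p = 0.00817, limma) and Il6ra by -0.41 (adjusted p = 0.0347, limma, passed in 7 of 17 alternative settings), below the fold change limit. For Csf3r the difference was 0.23 with an interval from 0.02 to 0.44 (adjusted p = 0.128, limma), and for Csf1r it was -0.11, from -0.23 to 0.01. In PMN-MDSCs limma called 0 of the 10, against 0.805% of all genes, while 6 of the 10 had an unadjusted p under 0.05, against 15.4% of all genes. By adjusted p alone 1 passed, against 1.17% of all genes. This was Csf2rb, with a difference of 0.36 (interval 0.21 to 0.51, adjusted p = 0.0499, limma), which passed in 6 of 17 alternative settings, where its adjusted p ran from 0.0083 to 0.33. The interval for Csf1r, -0.38 to -0.04, lay within the fold change limit, as did that for Csf3r, 0.17 to 0.48.

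Between the subsets under vehicle, all 10 genes were higher in PMN-MDSCs. The call covered 6 of them (Csf2ra, Csf2rb, Csf2rb2, Csf3r, Ifngr1 and Tgfbr2), against 34.0% of all genes, and all 10 passed the adjusted p alone, against 62.0%. Over all genes the calls were nearly even in direction, with 2009 higher and 1959 lower, and the median difference was -0.01 against 0.70 for the 10. Il10ra, Il6ra and Il4ra were higher by 0.55, 0.52 and 0.50, below the fold change limit, and without PMN-MDSC vehicle replicate 1 Il6ra passed it at 0.61.

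The response to MS-275 differed between the subsets in 3 of the 10 genes (18.1% of all genes), and in 6 by adjusted p alone (31.0%). Csf2rb2 responded lower in PMN-MDSCs than in M-MDSCs by 0.95 (interval -1.13 to -0.77, adjusted p = 3.12e-05, limma). The response of Csf1r was lower by 0.93 (interval -1.12 to -0.74, adjusted p = 4.61e-05, limma) and that of Csf3r by 0.71 (interval -0.96 to -0.47, adjusted p = 0.00102, limma). For Csf2rb the difference was -0.53 (adjusted p = 6.98e-04, limma), below the fold change limit, and it was called with quantile normalization (-0.63) and after rescaling without S100a8 and S100a9 (-0.65). Il10ra differed in the other direction, by 0.57 (adjusted p = 9.82e-04, limma), and passed the limit with a pseudocount of 0.1 (0.59) and without M-MDSC MS-275 replicate 1 (0.62). Ifngr1 differed by -0.39 (adjusted p = 0.00396, limma), below the limit. For Csf2ra, lower under MS-275 in both subsets, the difference in response was -0.09, with an interval from -0.32 to 0.15.

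For CXD101 the response differed in 2 of the 10 genes (13.9% of all genes), and in 6 by adjusted p alone (24.2%). These were Csf1r, by -0.82 (interval -1.01 to -0.64, adjusted p = 1.60e-04, limma), and Csf3r, by -0.80 (interval -1.05 to -0.56, adjusted p = 7.29e-04, limma). Csf2ra (-0.41), Csf2rb2 (-0.35), Ifngr1 (-0.35) and Il10ra (0.37) passed the adjusted p and not the fold change limit.

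**Figure D5:**
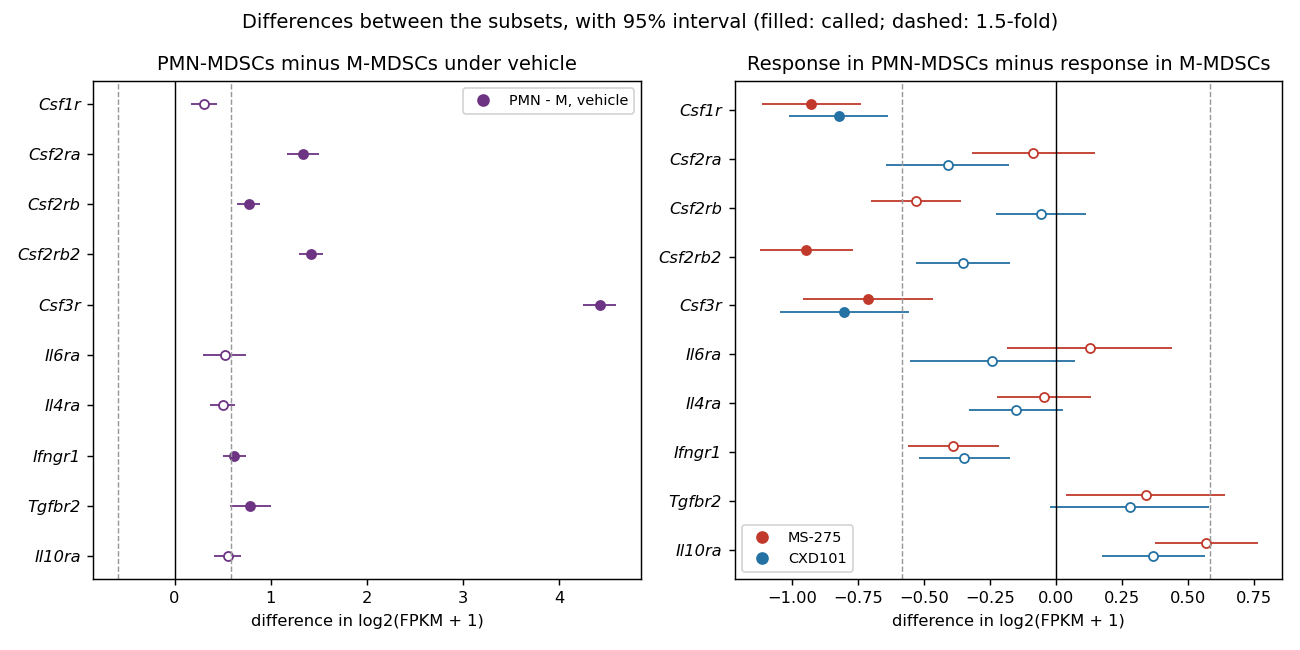
Differences in log2(FPKM + 1) for the 10 genes, between PMN-MDSCs and M-MDSCs under vehicle (left) and between the responses of the subsets to each inhibitor (right), with 95% intervals from limma; filled points were called and dashed lines mark a fold change of 1.5. Csf3r differed by 4.42 under vehicle, and Csf1r and Csf3r responded lower in PMN-MDSCs to both inhibitors.

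The partner chains were measured for all members that need one. Counts called in this and the following lists stand beside the shares of all genes called. These shares were 17.5% and 8.13% under MS-275 and CXD101 in M-MDSCs, 28.7% and 21.4% in PMN-MDSCs, and 34.0% between the subsets under vehicle. No list was tested against them. Of the 7 partner chain genes, all tested, 3 were higher and 2 lower in PMN-MDSCs under vehicle. Il6st, the signaling chain of the IL-6 receptor, had 21.5 and 22.4 FPKM in M-MDSCs and 7.09 and 6.80 in PMN-MDSCs under vehicle (-1.53, adjusted p = 1.02e-07, limma), opposite in direction to Il6ra. Il13ra1, Tgfbr1 and Il10rb were higher in PMN-MDSCs by 1.91, 1.18 and 1.16, and Tgfbr3, a TGF-beta co-receptor, was lower by 1.14. Under MS-275, Ifngr2 fell in M-MDSCs by 0.72, from 45.3 and 43.1 to 27.4 and 25.4 FPKM, where its partner Ifngr1 was higher. In PMN-MDSCs under MS-275, Il6st and Tgfbr1 fell by 0.89 and 0.60 and Tgfbr3 rose by 0.80. Under CXD101, Il13ra1 fell in M-MDSCs by 0.73, and in PMN-MDSCs Tgfbr3 rose by 1.15 and Tgfbr1 fell by 0.65. The common gamma chain gene Il2rg lay between 71.3 and 125 FPKM and was not called.

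Among the 14 ligand genes, 3 passed the filter on low values in each model. Csf1, which encodes the ligand of CSF1R, had 91.7 and 87.9 FPKM in PMN-MDSCs under vehicle, 17.9 and 21.6 under MS-275 and 23.7 and 21.8 under CXD101, and at most 5.39 in M-MDSCs. In PMN-MDSCs it fell by 2.13 with MS-275 and 1.93 with CXD101 (adjusted p = 5.49e-06 and 1.19e-05, limma), beside the fall of its receptor gene. Csf1 was higher in PMN-MDSCs under vehicle by 4.40, and in M-MDSCs its MS-275 level exceeded that with CXD101 by 0.76 (adjusted p = 0.00486, limma). Il6 was low and fell under both inhibitors, in M-MDSCs from 3.01 and 2.36 to 0.0974 and 0.492 FPKM under MS-275. Tgfb1 lay between 148 and 192 FPKM in all 12 libraries and was not called. Il34, Il3, Il5 and Ifng were listed at 0 in all libraries, and Csf2, Csf3, Il4, Il13, Tgfb2, Tgfb3 and Il10 stayed below 1 FPKM.

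All 14 genes for kinases and signal transducers were tested. Stat4, a STAT protein of the IL-12 pathway, rose in each subset under each inhibitor, from 2.09 and 1.82 to 7.53 and 7.48 FPKM in M-MDSCs and from 4.11 and 4.75 to 11.9 and 10.4 in PMN-MDSCs under MS-275. Jak3, the kinase of the common gamma chain, rose in PMN-MDSCs with MS-275 (1.0025) and CXD101 (0.87), and Smad3 rose in M-MDSCs under MS-275 by 0.63. Under vehicle 5 of the 14 were called higher in PMN-MDSCs (Smad3 by 1.38, Stat4 by 0.88, Stat6 by 0.87, and Jak1 and Jak2). Of all genes, 34.0% were called there in either direction. Of the 14 feedback inhibitor genes, all tested, 3 were higher and 2 lower under MS-275 in M-MDSCs, and 2 were higher and 1 lower in PMN-MDSCs. Socs1, an inhibitor of Janus kinases, rose from 15.8 and 16.6 to 30.0 and 27.1 FPKM in M-MDSCs and from 49.6 and 49.2 to 108 and 120 in PMN-MDSCs under MS-275. Socs3, an inhibitor of G-CSF and IL-6 receptor signaling, rose by 0.75 in PMN-MDSCs, and Socs6 fell by 0.93 in M-MDSCs and 0.71 in PMN-MDSCs. Ptpn6, the phosphatase SHP-1, fell in M-MDSCs under MS-275 from 271 and 270 to 151 and 156 FPKM, and Smad6 and Smad7, inhibitors of TGF-beta family signaling, rose there by 0.77 and 0.75. Under CXD101, Smad6, Smad7 and Socs6 were called in M-MDSCs in the same directions (0.65, 0.63 and -0.69), and Socs1 rose in PMN-MDSCs by 0.85. Between the subsets under vehicle, Socs1, Smad7, Socs3, Cish and Sh2b3 were higher in PMN-MDSCs (1.55, 1.19, 1.10, 0.83 and 0.59) and Socs6 was lower (-0.61).

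Of 15 genes listed as targets of these signals, 11 were tested in M-MDSCs and 12 in PMN-MDSCs. Under MS-275, 2 were higher and 6 lower in M-MDSCs, led by Mrc1 (-2.36), Arg1 (-1.81), which encodes arginase 1, and Tgfbi (-1.45), and 1 was higher and 5 lower in PMN-MDSCs, led by Mgl2 (-3.67), Mrc1 (-3.60) and Chil3 (1.70). Mrc1 is also on the macrophage list and Chil3 on the monocyte list. Under CXD101, 1 was higher and 3 lower in M-MDSCs, led by Chil3 (1.39), Mgl2 (-0.73) and Bcl2l1 (-0.64), and 1 was higher and 4 lower in PMN-MDSCs, led by Mgl2 (-2.51), Chil3 (1.77) and Mrc1 (-1.14). Among 30 other cytokine and growth factor receptor genes, 19 were tested in M-MDSCs and 22 in PMN-MDSCs. In M-MDSCs 4 were higher and 1 lower under MS-275, led by Kit, the stem cell factor receptor (1.38), Il12rb1 (1.20) and Il12rb2 (-0.90), and 2 were higher and 2 lower under CXD101, led by Il12rb2 (-1.10), Kit (0.85) and Il12rb1 (0.75). In PMN-MDSCs 8 were higher and 5 lower under MS-275, led by Acvrl1 (1.97), Il12rb2 (-1.75) and Tgfbr3l (1.71), and 7 were higher and 5 lower under CXD101, led by Acvrl1 (1.70), Kit (1.5039) and Il18r1 (1.45). Kit is also on a list of 6 progenitor markers, which summed to 6.202 to 7.15 FPKM in M-MDSCs under vehicle and 274 to 303 under MS-275, most of it Ly6a, and to 27.0 to 33.0 and 195 to 204 in PMN-MDSCs. The IL-12 receptor chains thus went in opposite directions, Il12rb1 higher and Il12rb2 lower, in each subset under each inhibitor. Under vehicle 8 of the 22 tested were higher in PMN-MDSCs, led by the decoy receptor gene Il1r2 (3.17), Kit (1.91) and Il17ra (1.57). This count is near the share of all genes called there in either direction, 34.0%. Signal targets higher under vehicle in PMN-MDSCs numbered 6 of 12, led by Skil (1.18), Ciita (1.10) and Bcl2l1 (1.02), and 1 was lower, Mrc1 (-0.70). The sheddase genes Adam10 and Adam17, which release receptor ectodomains, were not called by limma in any comparison, with an unadjusted p under 0.05 for 0 to 2 of them in each, at 41.4 to 53.4 and 30.2 to 56.8 FPKM.

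Between the inhibitors, 4.40% of all genes were called in M-MDSCs and 0.805% in PMN-MDSCs. Set against CXD101, 4 of 11 signal targets tested were lower with MS-275 in M-MDSCs, led by Mrc1 (-2.18), Arg1 (-1.68) and Tgfbi (-0.83). In PMN-MDSCs 3 of 12 were lower, Mrc1 (-2.47), Arg1 (-1.17) and Mgl2 (-1.16). Of 14 feedback inhibitors, Socs1 alone was called, higher under MS-275 in M-MDSCs by 0.73. The response to MS-275 differed between the subsets in 18.1% of all genes. Of the 7 partner chains, 3 were called, Tgfbr3 (1.38) and Ifngr2 (0.63) higher and Tgfbr1 (-0.90) lower in PMN-MDSCs. Of 3 ligands tested, 1 was called, Csf1 (-2.66). Of the 14 transducers, Jak3 (1.09), Smad3 (-1.08) and Jak2 (0.89) led 3 higher and 1 lower. Of the 22 other receptors tested, Il18r1 (1.44), Acvrl1 (1.19) and Tgfbr3l (1.11) led 8 higher and 4 lower. Among 12 signal targets tested, 1 was higher and 3 lower, led by Mgl2 (-2.53), Mrc1 (-1.25) and Ciita (-0.95). For CXD101 the response differed in 13.9% of all genes. Called were 3 of the 7 partner chains, Tgfbr3 (1.18), Tgfbr1 (-0.72) and Il13ra1 (0.67), and 1 of 3 ligands, Csf1 (-1.70). Called as well were 1 of 14 feedback inhibitors, Socs1 (0.80), and 2 of 14 transducers, Jak2 (0.95) and Jak3 (0.84). Il18r1 (1.53), Acvrl1 (1.15) and Tnfrsf1b (-0.92) led 6 higher and 1 lower among the 22 other receptors tested. Of 12 signal targets tested, Mgl2 (-1.77) and Mrc1 (-0.96) were called.

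Genes whose level followed the 4 main receptor genes most closely over the 12 libraries were found by the distance between profiles centred on their own mean, among 9284 genes. For Csf1r these were Colgalt1 (distance 0.346, where a flat profile lay at 1.51), Txnrd2 and Slc20a1. For Csf2ra they were Aldh3b1 (0.397, flat 2.21), Plekhm2 and Myo1f. Those near Csf2rb included Ctsl (0.579, flat 1.42) and Ormdl3, and Csf3r was followed by Kcnn3 (1.13, flat 6.94), Gja5 and Il1rn. Il1rn, the IL-1 receptor antagonist gene, had mean levels of 28.3, 42.4 and 28.2 FPKM in M-MDSCs under vehicle, MS-275 and CXD101 and of 504, 678 and 605 in PMN-MDSCs.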

How the data were processed

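RNA-seq of M-MDSCs and PMN-MDSCs was analyzed in 12 libraries (TruSeq stranded mRNA, 101-base single-end, Illumina NovaSeq), with 2 for each of 6 groups taken from the submitters' labels. The authors deposited 1 table of FPKM values for 24346 gene symbols per library. The submitters' processing notes list TopHat2 2.1.1, Bowtie2 2.2.8, SAMtools 0.1.18, Cuffdiff 2.2.1 and the build mm10, and the annotation, strand setting and treatment of shared reads are not given in the sources used here. FPKM already include scaling by the authors, so no counts were modeled, and the genes that share reads cannot be corrected.

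Values were used as deposited, as log2(FPKM + 1). A change on this scale understates that of low genes. limma 3.58.1 in R 4.3.3 (lmFit, contrasts.fit, eBayes with an intensity trend, two-sided) was fitted to group means in 1 model of the 6 M-MDSC libraries (11078 genes), 1 of the 6 PMN-MDSC libraries (11184 genes) and, for differences between subsets and in response, 1 of all 12 (11662 genes). Genes with at least 1 FPKM in at least 2 libraries were tested, p-values were adjusted over all of them by the Benjamini-Hochberg method, and genes were called at an adjusted p under 0.05 and a fold change above 1.5. The fits were checked on simulated data. Reads were estimated from the spacing of values up to 0.5 FPKM in transcripts of at least 1000 bases. They depend on GENCODE transcript lengths like those of the authors, and no interval was derived from them. Intervals in the text are 95% limits from limma. Their width rests on the spread between replicate libraries, pooled over all groups of a model and drawn toward the trend over all genes.

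The members and lists were chosen with earlier results of these data known. All members were named, with the partner chains, every called ligand and feedback inhibitor gene, and the 3 called genes of largest change in each other list. Transducers beyond this were listed by name only. Profiles were compared by Euclidean distance among genes with a mean of at least 5 FPKM in the highest group. One gene near Csf2rb in this comparison is not reported here. Positions, exons and shared stretches were taken from GRCm38 with the GENCODE M21 annotation, and promoters from RefSeq. Python 3.11.15 with numpy 2.4.6, pandas 2.3.3, Biopython 1.88 and matplotlib 3.10.9 served the other steps. Alternatives covered the pseudocount, filter, scaling, trend, replicate block, fold change limit, libraries in the model and leaving out each library.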

Additional observations from a re-analysis of the deposited data

Results flagged for a closer look

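For 5 results, the response to an inhibitor differed between PMN-MDSCs and M-MDSCs by the limma test of the difference itself. Under MS-275 these were Csf2rb2 (-0.95), Csf1r (-0.93) and Csf3r (-0.71), and under CXD101 they were Csf1r (-0.82) and Csf3r (-0.80), each as the log2 response in PMN-MDSCs minus that in M-MDSCs. Csf1r was below vehicle in both subsets and further below in PMN-MDSCs, Csf3r was above vehicle in both and further above in M-MDSCs, and Csf2rb2 under MS-275 was above vehicle in M-MDSCs and below it in PMN-MDSCs. By the same test, 4 of 9 neutrophil markers responded higher in PMN-MDSCs to MS-275 and 2 lower, with 18.1% of all genes called. For CXD101, 4 responded higher and 0 lower, with 13.9% of all genes called. Most neutrophil markers called here thus went opposite to Csf3r. Of 8 macrophage markers, 1 responded higher and 4 lower to MS-275, and 0 higher and 3 lower to CXD101. The part of these markers in the receptor values was not tested.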

How the results depend on the processing

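Over the 9 comparisons, 931 of 960 differences of the 10 genes kept their direction and stayed called or not called under settings other than leaving out 1 library, and 705 of 720 did when 1 was left out. By the adjusted p limit alone, 89 of these 1680 values changed sides. A fold change above 2 in place of 1.5 reduced the genes called from 3 to 1 under MS-275 in M-MDSCs, from 2 to 0 between the inhibitors in M-MDSCs, from 2 to 1 under MS-275 in PMN-MDSCs, from 6 to 3 between the subsets under vehicle, and to 0 for the difference in response to MS-275 (from 3) and to CXD101 (from 2). Quantile normalization reduced those under MS-275 in PMN-MDSCs to 1. Over all genes, the limit of 2 moved the calls in all 9 comparisons, to between 40 (PMN-MDSCs, MS-275 against CXD101, from 90) and 1543 (subsets under vehicle, from 3968), and an FPKM of at least 5 moved those in M-MDSCs to 1269 from 1934 under MS-275, 591 from 901 under CXD101 and 268 from 487 between them. Calls over all genes between the inhibitors in PMN-MDSCs were 4 without a filter, 35 without the trend, 10 to 23 without any 1 of the 4 libraries compared and 151 with all 12 libraries in one model. In M-MDSCs they were 309 and 308 without MS-275 replicate 1 and 2.

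The differences that changed sign were small and not called. Under CXD101 in M-MDSCs, Csf2rb2 was 0.0032, 0.0324 and 0.0141 with median-of-ratios scaling, quantile normalization and rescaling without S100a8 and S100a9, and Csf2ra and Csf2rb were 0.0105 and 0.0087 with quantile normalization. Between the inhibitors in M-MDSCs, Tgfbr2 was 0.0051, 0.044 and 0.0254 under the same 3 settings. Under CXD101 in PMN-MDSCs, quantile normalization gave 0.0026 for Csf2rb and 0.0229 for Ifngr1, and rescaling gave -0.0089 for Il4ra. When 1 library was left out, the range crossed 0 under CXD101 in M-MDSCs for Csf2ra (-0.14 to 0.049), Csf2rb2 (-0.0136 to 0.0013) and Il6ra (-0.13 to 0.17), between the inhibitors in M-MDSCs for Tgfbr2 (-0.15 to 0.10), under MS-275 in PMN-MDSCs for Tgfbr2 (-0.10 to 0.0014), under CXD101 in PMN-MDSCs for Il4ra (-0.0074 to 0.0364), between the inhibitors there for Il6ra (-0.0874 to 0.0095) and Tgfbr2 (-0.02 to 0.0933), and for the difference in response to CXD101 of Csf2rb (-0.12 to 0.0048). The causes were not tested, and a lone library left in a group is assumed to vary like the others.

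With the replicate number as a replicate block the genes called stayed at 3, 1, 2, 2, 1, 0, 6, 3 and 2 in the 9 comparisons. The numbers share no stated origin, and deviations of same-numbered libraries correlated with r of -0.13 to 0.18. With 2 libraries a group, small differences cannot be resolved, and the depth is known only as an estimate.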
